A study of Homo sapiens with 10 samples.

Results

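The JAK and STAT genes described here were STAT2, STAT3, STAT4, STAT5A, STAT5B, STAT6, JAK1, JAK2 and TYK2. They were chosen by symbol, as protein-coding genes, and made up 9 of the 60603 gene rows and of the 19975 protein-coding rows of the tables. mRNA-seq was performed in NB4, an established line of human acute promyelocytic leukemia (APL). In one experiment the cells were transduced for 48 h with pLKO.1 puro lentivirus, either empty (EV) or carrying 1 of the short hairpin RNAs shA1 and shB2 against GSE1, a subunit of corepressor complexes that also hold the demethylase LSD1. In the other, cells were kept for 24 h with the LSD1 inhibitor MC2580 at 2 µM or with its solvent DMSO. Each of the 5 groups had 2 replicates, so 10 libraries in all came from 1 cell line, and the knockdown was read in whole transduced cultures.

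Cytokine receptors have no kinase activity of their own and carry JAK kinases (JAK1, JAK2, TYK2) on their intracellular chains. When a cytokine brings the chains together, the JAKs phosphorylate the receptor and the STAT proteins that dock on it, and the STATs pair and enter the nucleus to bind DNA. STAT2 serves type I interferons together with IRF9, STAT3 the IL-6 and IL-10 families and G-CSF, STAT4 IL-12, STAT5A and STAT5B the growth factor cytokines of myeloid cells, and STAT6 IL-4 and IL-13. mRNA levels, as measured here, give the amount of these transcripts and say nothing of their phosphorylation.

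The tables used here hold 1 DESeq2 estimate per gene and comparison (shA1 against EV, shB2 against EV, MC2580 against DMSO) and a base mean, the average over an experiment of counts divided by library size factors. They hold no value per library. The level of each group was therefore solved from the base mean and the fold changes, in normalized counts, with a model standard error (SE, n = 2 libraries a group) solved from the deposited errors, and whether single libraries overlap between groups cannot be stated. The p-values test each fold change against a model error that DESeq2 fitted from groups of 2 replicates, which the study describes as biological. They do not measure the spread within any single group. The base means of all genes summed to 4.05e+07 in the knockdown experiment and to 4.12e+07 in the inhibitor experiment. GSE1 itself fell under shA1 (log2 fold change −0.77, adjusted p = 2.47e-07, DESeq2) and under shB2 (−0.79, adjusted p = 7.66e-08, DESeq2), and was at 0.07 under MC2580 (adjusted p = 1.00, DESeq2). KDM1A, the gene of LSD1, was between −0.05 and 0.03 in the 3 comparisons. Of 8 promyelocyte markers, MPO (myeloperoxidase) had a base mean of 506765 in the knockdown experiment, whereas ELANE (neutrophil elastase) was nearly absent at 1.10. Of 7 such markers tested, 5 fell under shA1 and 4 fell and 1 rose under shB2, at an adjusted p under 0.01 (DESeq2). Over all genes tested, 11.3% rose and 7.99% fell under shA1, and 14.2% rose and 12.1% fell under shB2. Of 15 markers of other cell types, 5 had a base mean under 10, and 1 of 10 tested rose under shA1, PECAM1 (CD31, also made by myeloid cells), with a log2 fold change of 1.94. Under shB2, 3 of 11 tested moved: PECAM1 (1.61) and NCAM1 (CD56, 1.33) rose and CD3D (a chain of the T cell receptor complex, −1.29) fell. The counts for other cell types lie near the shares over all genes, and the part of the markers in the results below was not tested. In RNA from whole cultures, more cells making a transcript and more transcript per cell cannot be told apart.

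At the outset the 9 genes differed widely in level. Per kilobase of the longest protein-coding transcript, the level in EV cells was 4032 normalized counts for TYK2, 1936 for STAT6, 1135 for STAT5A, 979 for STAT3, 947 for STAT5B, 592 for JAK1, 420 for STAT2, 112 for JAK2 and 3.86 for STAT4. STAT3 and STAT5B lay 0.44 standard errors apart and did not differ beyond their error, and all other neighbours in this order lay at least 2.09 standard errors apart. TYK2, which sits on the interferon, IL-10, IL-12 and gp130 receptors, thus provided 85.1% of the summed per-kilobase level of the 3 kinases in EV cells, and STAT6 provided 35.7% of that of the 6 STAT genes. In DMSO cells the same 2 genes led, with 4218 per kilobase for TYK2 and 2174 for STAT6, and JAK1 stood at 392 per kilobase. The 2 experiments were normalized separately, so levels were not tested across them. Per kilobase of coding sequence instead of transcript, TYK2 and STAT6 kept ranks 1 and 2 and JAK2 and STAT4 ranks 8 and 9 in every group, while the ranks in between changed places.

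**Figure D1:**
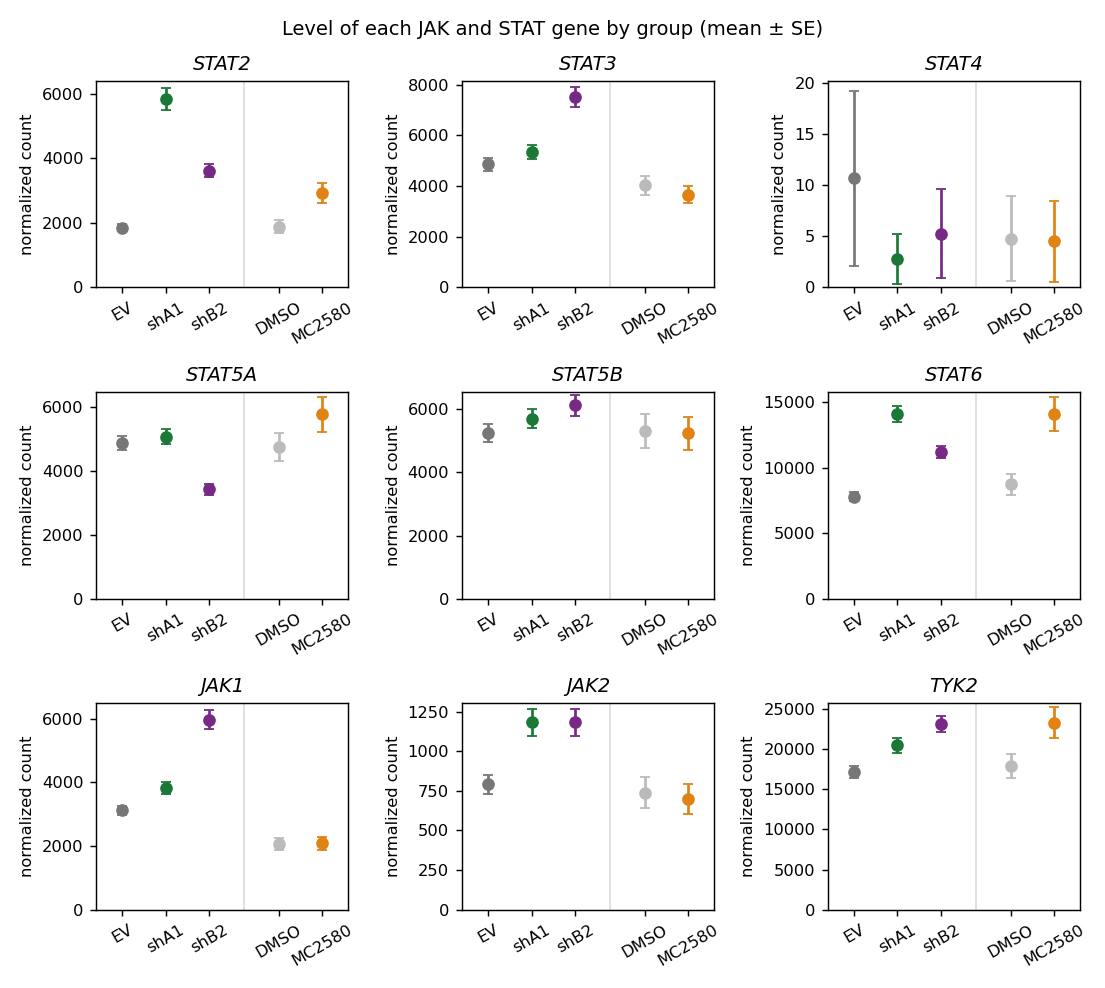
Level of each gene in normalized counts (y axis, linear, starting at 0) in EV, shA1 and shB2 cells (left of the grey line) and in DMSO and MC2580 cells (right). Points are group means solved from the deposited estimates and bars are ± 1 SE with 2 libraries a group. STAT2 stands highest in shA1 cells (5831), JAK1 and STAT3 in shB2 cells (5965 and 7528), STAT5A is lowest in shB2 cells (3429), and the bars of STAT4 reach far relative to its level.

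In shA1 cells, 3 of the 8 members tested rose (STAT2, STAT6 and JAK2) and none fell at an adjusted p under 0.01 by the DESeq2 Wald test, while 5 were higher and 0 lower at an unadjusted p under 0.05. Over all 16673 genes tested, 11.3% rose and 7.99% fell. With a log2 fold change over 1 required as well, the threshold used in the study, STAT2 alone passed, where 4.32% of all genes passed upward. In shB2 cells, 6 of 9 members rose (STAT2, STAT3, STAT6, JAK1, JAK2 and TYK2) and STAT5A fell, whereas 14.2% of 17913 genes rose and 12.1% fell. None of the 9 passed the fold threshold under shB2, where 5.58% of all genes passed upward, although STAT2 (0.97) and JAK1 (0.94) lay just under it. By adjusted p in DESeq2, none of the 9 members passed under MC2580, where 0.733% of 18554 genes rose, 0.587% also passing the fold threshold, and 0.0269% fell. At an unadjusted p under 0.05 there were 3 under MC2580 (STAT2, STAT6 and TYK2). The share of all genes at an unadjusted p under 0.05 was not counted, so such counts, here and below, have no background beside them. The median log2 fold change of the members was 0.28 under shA1, 0.52 under shB2 and 0.01 under MC2580, beside −0.00, 0.00 and −0.00 for all genes tested. Both hairpins were compared with the same EV libraries, so their values are given side by side and one does not repeat the other. EV carries no hairpin, so loss of GSE1 and the presence of a hairpin cannot be told apart in either comparison.

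**Figure D2:**
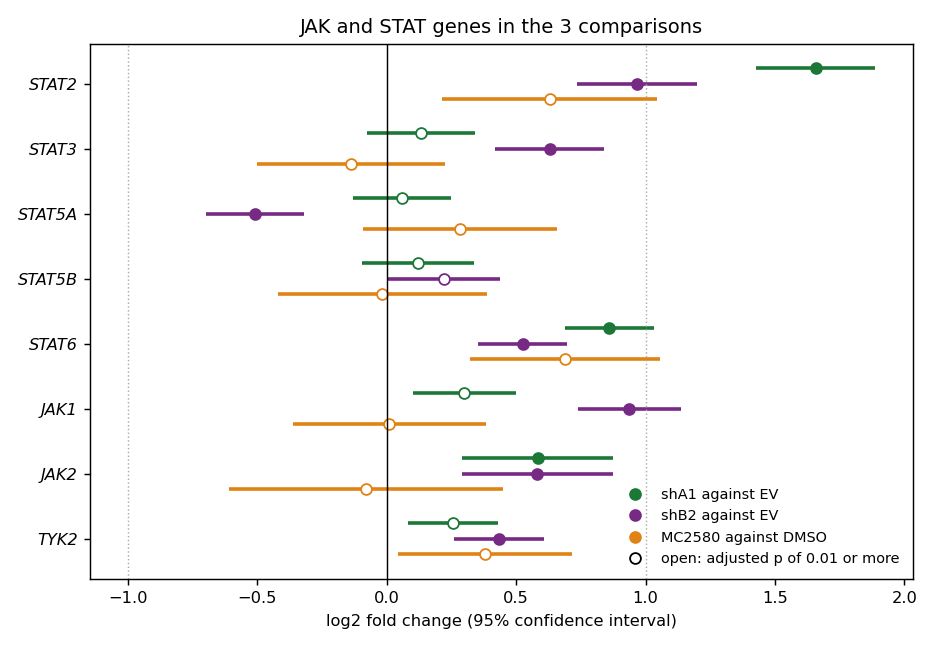
Log2 fold change (x axis) of 8 members under shA1 and shB2 against EV and under MC2580 against DMSO, with 95% confidence intervals as lines, filled points for an adjusted p under 0.01 and dotted lines at −1 and 1. STAT2 under shA1 (1.66) is the only point beyond the dotted lines, and STAT5A under shB2 (−0.51) the only filled point below 0. STAT4, whose intervals span more than the plotted range, is left out.

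STAT2, the interferon-specific STAT, showed the largest rise. Its level was 1849 ± 108 normalized counts in EV cells, 5831 ± 331 in shA1 cells and 3614 ± 207 in shB2 cells (SE, n = 2 a group). shA1 cells were thus highest and EV cells lowest, with the errors of the 3 groups well apart. The log2 fold change was 1.66 ± 0.12 (SE) under shA1, a 3.15-fold rise with a 95% interval of 2.69 to 3.70 (adjusted p = 2.76e-42, DESeq2), which placed STAT2 at the 96.1 percentile of all genes tested. Under shB2 it was 0.97 ± 0.12, or 1.95-fold (adjusted p = 8.51e-15, DESeq2). Per kilobase, STAT2 moved from rank 7 of the 9 genes in EV cells to rank 3 in shA1 cells, where it lay 1.53 standard errors above STAT5A (rank 4 per kilobase of coding sequence). In shB2 cells it lay 0.38 standard errors above STAT5A, and its rank of 6 there was 7, as in EV cells, per kilobase of coding sequence. The ratio of STAT2 to STAT3 per kilobase was 0.429 in EV, 1.23 in shA1 and 0.542 in shB2 cells. Under MC2580 the level was 2916 ± 303 against 1885 ± 196 in DMSO cells, a log2 fold change of 0.63 ± 0.21 that did not pass the test (adjusted p = 0.179, DESeq2).

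STAT2 lies on the minus strand of chromosome 12 (GRCh38, 56341597 to 56360203 in GENCODE release 44). Because STAT2 is known as an interferon-induced gene, its promoter was read for the letters that STAT complexes bind. The 100 bases ahead of its start in RefSeq (GRCh38.p14, chr12:56360108-56360207, minus strand) hold none of the motifs searched. The annotated starts differ, and most of these bases lie inside the GENCODE gene model, which reaches 56360203.
STAT2: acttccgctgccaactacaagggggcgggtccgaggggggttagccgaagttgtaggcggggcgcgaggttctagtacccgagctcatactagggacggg
The motifs were the gamma-activated site (GAS, TTCNNNGAA), the wider spaced form that STAT6 prefers (TTCNNNNGAA) and the core of the interferon-stimulated response element (ISRE, GAAANNGAAA), on both strands of windows from 250 bases before to 50 after each start. GAS was found in 0 of the 17 windows of the 9 members and in 7.66% of 35116 windows genome-wide, the STAT6 form in 1 of 17 (at STAT5A) and in 6.44%, and the ISRE core in 0 of 17 and in 3.57%. These letters are a description of short windows only, and their absence there says nothing of binding elsewhere.

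STAT6, the STAT of IL-4 and IL-13, rose under both hairpins. Its level was 7779 ± 337 normalized counts in EV, 14121 ± 606 in shA1 and 11193 ± 482 in shB2 cells (SE, n = 2 a group). Both knockdown groups were above EV, by a log2 fold change of 0.86 ± 0.09 under shA1 (1.82-fold, 95% interval 1.61 to 2.05, adjusted p = 1.78e-20, DESeq2) and 0.52 ± 0.09 under shB2 (1.44-fold, adjusted p = 3.24e-08, DESeq2). With MC2580 the level was 14080 ± 1287 against 8737 ± 800 with DMSO. This log2 fold change, 0.69 ± 0.19, had the smallest adjusted p of the members under the drug, 0.0251 by DESeq2, which is past 0.05 and not past 0.01. STAT6 lies on the same chromosome as STAT2, at 57095408 to 57132139, with 735204 bases between the 2 gene models.

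STAT3, the STAT of IL-6, IL-10 and G-CSF, rose under shB2. The level was 4866 ± 256 in EV, 5333 ± 280 in shA1 and 7528 ± 393 in shB2 cells, so that shA1 was close to EV and shB2 stood above both. The log2 fold change was 0.63 ± 0.11 under shB2 (1.55-fold, adjusted p = 4.84e-08, DESeq2) and 0.13 ± 0.11 under shA1 (adjusted p = 0.422, DESeq2). Under MC2580 it was −0.14 ± 0.18, with 3665 ± 332 against 4028 ± 365 normalized counts, and the 95% interval of the fold ran from 0.708 to 1.17.

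STAT5A and STAT5B are closely similar proteins that carry signals of GM-CSF, IL-3 and other growth factors. STAT5A was the sole member that fell: its level was 4880 ± 231 in EV, 5085 ± 240 in shA1 and 3429 ± 164 in shB2 cells. The log2 fold change was −0.51 ± 0.10 under shB2, a fold of 0.703 with a 95% interval of 0.616 to 0.802 (adjusted p = 1.48e-06, DESeq2), and 0.06 ± 0.10 under shA1 (adjusted p = 0.749, DESeq2). STAT5B did not pass the test in any comparison, with levels of 5254 ± 286 in EV, 5712 ± 310 in shA1 and 6127 ± 333 in shB2 cells and log2 fold changes of 0.12 ± 0.11 and 0.22 ± 0.11. Per kilobase, the ratio of STAT5A to STAT5B was 1.20 in EV, 1.15 in shA1 and 0.722 in shB2 cells, so that STAT5B exceeded STAT5A in shB2 cells alone by this scale. Per kilobase of coding sequence STAT5B exceeded STAT5A in EV (2225 against 2049 normalized counts), shA1 (2419 against 2135) and DMSO cells (2247 against 1995) as well. With MC2580, STAT5A was at 5783 ± 542 against 4753 ± 446 (log2 fold change 0.28 ± 0.19) and STAT5B at 5241 ± 530 against 5304 ± 536 (−0.02 ± 0.21), a ratio of 1.42 against 1.16. The split between both genes is uncertain. They are near-identical over long stretches, and on chromosome 17 STAT5A (plus strand, 42287547 to 42311943) overlaps STAT5B (minus strand, 42199176 to 42288633) by 1087 bases, while the library kit does not mark strand. The 3′ end of STAT3, a minus-strand gene (42313324 to 42388540), lies 1380 bases beyond the end of STAT5A, and under shB2 STAT3 rose where STAT5A fell.

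STAT4, the STAT of IL-12 and chiefly a gene of T and NK cells, was close to the limit of these data. Its levels were 10.7 ± 8.55 normalized counts in EV, 2.78 ± 2.45 in shA1, 5.26 ± 4.36 in shB2, 4.78 ± 4.16 in DMSO and 4.52 ± 3.95 in MC2580 cells, with errors nearly as large as the levels. No adjusted p was given under shA1, and the log2 fold change under shB2, −1.02 ± 1.63, was not distinguishable from 0 (adjusted p = 0.707, DESeq2). The gene lies on chromosome 2, at 191029576 to 191151596.

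Among the kinases, JAK1, used by interferon receptors and by the gp130 and common gamma chain families, rose under shB2. Its level was 3114 ± 155 in EV, 3832 ± 190 in shA1 and 5965 ± 292 in shB2 cells, and the log2 fold change under shB2 was 0.94 ± 0.10, a 1.92-fold rise with a 95% interval of 1.67 to 2.20 (adjusted p = 7.28e-19, DESeq2). Under shA1 it was 0.30 ± 0.10, which missed the threshold (adjusted p = 0.0148, DESeq2). Per kilobase, JAK1 in shB2 cells (1135) came level with STAT5B (1105), 0.37 standard errors apart. With MC2580 the level was 2078 ± 193 against 2063 ± 192 with DMSO, a log2 fold change of 0.01 with a 95% interval of −0.36 to 0.38. JAK1 lies on chromosome 1, minus strand, at 64833223 to 65067754.

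JAK2, the kinase of the erythropoietin, thrombopoietin, IL-3 and GM-CSF receptors, rose by a like amount under both hairpins, from 790.0 ± 58.0 normalized counts in EV cells to 1184 ± 85.1 in shA1 and 1183 ± 85.1 in shB2 cells. The log2 fold change was 0.58 ± 0.15 under each (adjusted p = 0.000678 under shA1 and 0.000491 under shB2, DESeq2), or 1.50-fold. With MC2580 it stood at 697.9 ± 92.2 against 738.0 ± 97.4 with DMSO (log2 fold change −0.08 ± 0.27). JAK2 is on chromosome 9, plus strand, at 4984390 to 5129948.

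TYK2, the most abundant of the 9 per kilobase in all 5 groups, was at 17109 ± 746 in EV, 20447 ± 891 in shA1 and 23095 ± 1006 in shB2 cells. It rose under shB2 by a log2 fold change of 0.43 ± 0.09 (1.35-fold, adjusted p = 9.31e-06, DESeq2), and the 0.26 ± 0.09 under shA1 missed the threshold (adjusted p = 0.0177, DESeq2). With MC2580 it was at 23295 ± 1960 against 17896 ± 1507, a log2 fold change of 0.38 ± 0.17 that did not pass (adjusted p = 0.673, DESeq2). The ratio of TYK2 to JAK1 per kilobase was 6.81 in EV, 6.61 in shA1 and 4.80 in shB2 cells, and TYK2 made up 80.7% of the kinases' summed level in shB2 cells. The gene is on chromosome 19, minus strand, at 10350533 to 10380608.

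A call under one hairpin and not under the other does not show that they differ, so the difference itself was tested, as the log2 fold change under shB2 minus that under shA1. The error was taken at its upper bound, as if each hairpin had its own EV libraries. At an adjusted p under 0.01 (Wald test, Benjamini-Hochberg over 16673 genes), JAK1 was higher under shB2 (difference 0.64 ± 0.14, adjusted p = 0.000231, DESeq2 estimates), and STAT2 (−0.69 ± 0.17, adjusted p = 0.000814, DESeq2 estimates) and STAT5A (−0.57 ± 0.14, adjusted p = 0.000772, DESeq2 estimates) were lower. Over all genes, 2.82% were higher and 4.04% lower. STAT3 (0.50 ± 0.15, adjusted p = 0.0138, DESeq2 estimates) and STAT6 (−0.34 ± 0.12, adjusted p = 0.0629, DESeq2 estimates) did not pass, and STAT4 was not tested. None of the 8 differed by more than 1 on the log2 scale, and 5 had an unadjusted p under 0.05. With the error that counts the shared EV libraries once, STAT3 (adjusted p = 4.28e-05, DESeq2 estimates) and STAT6 (adjusted p = 0.00117, DESeq2 estimates) passed too, giving 2 members higher and 3 lower under shB2, beside 7.71% and 8.33% of all genes. JAK2 differed by −0.00, with a 95% interval of −0.41 to 0.41 at the upper bound, STAT5B by 0.10 (−0.21 to 0.41) and TYK2 by 0.18 (−0.07 to 0.42). For these 3 genes a difference of the size seen at STAT2 lies outside the interval.

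**Figure D3:**
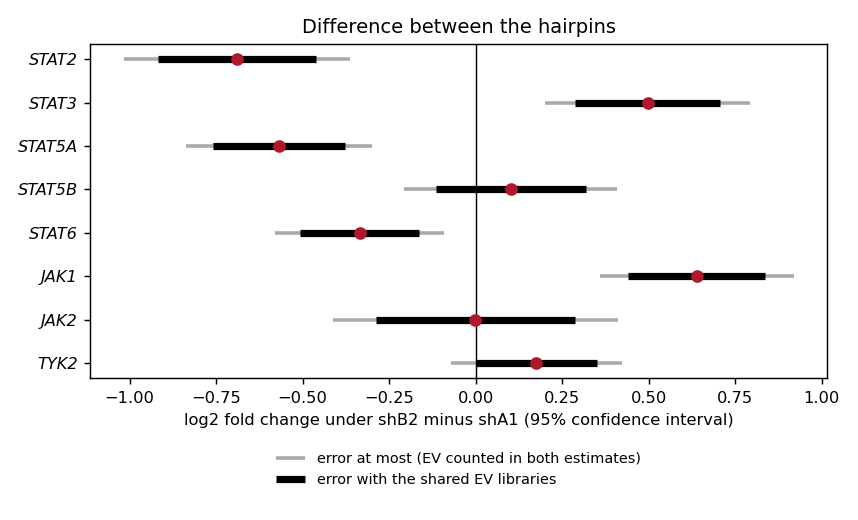
Difference of the log2 fold changes, shB2 minus shA1 (x axis), for 8 members. Thin grey lines are 95% confidence intervals with the error at its upper bound and thick black lines those with the EV libraries counted once. STAT2 (−0.69), STAT5A (−0.57) and STAT6 (−0.34) lie to the left of 0, JAK1 (0.64) and STAT3 (0.50) to the right, and JAK2 at 0.

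The receptor chains that carry these kinases rose under the hairpins more often than they fell. Of 38 listed, 16 had a base mean under 10 in the knockdown experiment. Among all genes tested, 11.3% rose and 7.99% fell under shA1, and 14.2% rose and 12.1% fell under shB2. Under MC2580, 0.733% rose and 0.0269% fell. IL12RB1, counted as a rise under both hairpins, had a level of 1.28 in EV and 28.6 in shA1 cells. Of 22 chains tested under shA1, 12 rose and 0 fell by adjusted p in DESeq2 (median log2 fold change 0.55, 16 higher and 0 lower at an unadjusted p under 0.05), of 24 under shB2, 11 rose and 1 fell (median 0.52), and of 22 under MC2580, 1 rose (median 0.09). IL10RA, the ligand-binding chain of the IL-10 receptor, which works through JAK1, TYK2 and STAT3, went from a level of 118 normalized counts in EV to 1552 in shA1 and 1574 in shB2 cells (log2 fold changes 3.72 ± 0.39 and 3.74 ± 0.39). IL4R, which feeds STAT6, rose under both hairpins (0.89 ± 0.13 and 0.83 ± 0.13), as did its partner IL13RA1 (0.95 ± 0.17 and 1.01 ± 0.17). CSF2RB, the shared chain of the GM-CSF, IL-3 and IL-5 receptors and a partner of JAK2, went from a level of 176 in EV to 354 in shA1 and 677 in shB2 cells (1.01 ± 0.25 and 1.95 ± 0.25). IL31RA rose in all 3 comparisons, by 1.73 ± 0.31, 1.72 ± 0.31 and, under MC2580, 1.85 ± 0.44 (adjusted p = 0.00476, DESeq2). The chains of the type I interferon receptor did not pass the test: IFNAR1 was at 0.23 ± 0.15 and 0.30 ± 0.15 and IFNAR2 at −0.18 ± 0.16 and −0.05 ± 0.16 under shA1 and shB2. IL27RA, a JAK1 partner, rose under shA1 (0.47 ± 0.12) and fell under shB2 (−0.55 ± 0.13). CSF2RA, IL3RA, CRLF2 and IL9R are listed at a base mean of 0, as are all 18 protein-coding genes that the tables carry for both X and Y, so their level was not measured.

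Of 20 inhibitors of the pathway, 8 rose and 0 fell under shA1 by adjusted p in DESeq2 (median log2 fold change 0.40, 3 lower at an unadjusted p under 0.05), 10 rose and 3 fell under shB2 (median 0.52), and none moved under MC2580 (median −0.05, 1 at an unadjusted p under 0.05). USP18, which holds STAT2-linked signaling at the interferon receptor in check, went from a level of 289 normalized counts in EV to 2080 in shA1 and 557 in shB2 cells (2.85 ± 0.17 and 0.95 ± 0.17). SOCS1, a direct inhibitor of JAK kinases, rose under both hairpins (1.73 ± 0.36 and 2.46 ± 0.36). SOCS3, which acts on gp130 and G-CSF receptors, rose under shA1 (1.76 ± 0.51), while its 1.22 ± 0.51 under shB2 missed the threshold (adjusted p = 0.0511, DESeq2). SH2B3 (LNK), a brake on JAK2, rose under both (1.03 ± 0.10 and 0.74 ± 0.10), and CBL, a ubiquitin ligase of receptors and kinases, rose under both (0.49 ± 0.10 and 1.14 ± 0.10). PTPN11 (SHP2), a phosphatase with roles on both sides of the pathway, fell under shB2, from a level of 12363 to 4140, a log2 fold change of −1.58 ± 0.09 (adjusted p = 7.04e-63, DESeq2), and was at −0.23 ± 0.09 under shA1 (adjusted p = 0.0470, DESeq2). CISH, a STAT5-induced inhibitor, was at 0.24 ± 0.14 and 0.09 ± 0.14 and did not pass. Among 10 partners and adaptors, 3 rose under shA1 and 4 under shB2, none fell, and none moved under MC2580 by adjusted p in DESeq2 (medians 0.49, 0.34 and 0.04). At an unadjusted p under 0.05, 0 were lower under shA1, 1 was lower under shB2 and 0 moved under MC2580. Beside these counts of inhibitors, partners and adaptors, 11.3% of all genes tested rose and 7.99% fell under shA1. The shares were 14.2% and 12.1% under shB2 and 0.733% and 0.0269% under MC2580. IRF9, the DNA-binding partner of STAT2, went from a level of 184 in EV to 1055 in shA1 and 271 in shB2 cells, with log2 fold changes of 2.52 ± 0.22 (adjusted p = 8.20e-27, DESeq2) and 0.56 ± 0.23 (adjusted p = 0.0474, DESeq2). The coactivators CREBBP (0.74 ± 0.11 and 1.05 ± 0.11) and EP300 (0.62 ± 0.12 and 0.72 ± 0.12) rose under both hairpins.

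Some feedback and partner genes hold the letters that STATs read. CISH holds 4 copies of GAS ahead of its start (RefSeq, GRCh38.p14, chr3:50611863-50612024, minus strand), IRF9 holds 1 (chr14:24161187-24161225, plus strand) and SOCS1 holds 1 ISRE core (chr16:11256293-11256332, minus strand). The matches are in capitals, and the 3 are shown because they are the feedback and partner genes named above whose windows hold a match.
CISH: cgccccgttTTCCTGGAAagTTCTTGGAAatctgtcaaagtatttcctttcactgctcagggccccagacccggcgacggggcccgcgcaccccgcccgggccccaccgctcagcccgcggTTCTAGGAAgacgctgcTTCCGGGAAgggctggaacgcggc
IRF9: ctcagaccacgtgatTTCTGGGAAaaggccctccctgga
SOCS1: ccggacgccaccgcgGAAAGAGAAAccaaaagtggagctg
CISH, with 4 matches, did not pass the test under either hairpin, and SOCS1 and IRF9, with 1 each, rose under both and under shA1, respectively.

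Genes known as targets of each STAT were read beside the STATs. Of all genes tested, 11.3% rose and 7.99% fell under shA1, and 14.2% rose and 12.1% fell under shB2. Under MC2580, 0.733% rose and 0.0269% fell. Of 16 interferon-stimulated genes listed for STAT2, 15 rose under shA1 and 0 fell, none being lower at an unadjusted p under 0.05 either (median log2 fold change 4.05), 8 rose and 1 fell under shB2 (median 1.01), and 1 rose under MC2580 (median 0.53, 7 higher and 0 lower at an unadjusted p under 0.05), by adjusted p in DESeq2. OASL, an antiviral OAS-like protein, went from a level of 199 normalized counts in EV to 4412 in shA1 and 629 in shB2 cells (4.47 ± 0.20 and 1.66 ± 0.21). IFIT5, which binds foreign RNA, rose by 3.71 ± 0.23 and 1.48 ± 0.23, and IFIT3, which stabilizes its relative IFIT1, rose under shA1 and shB2 (4.38 ± 0.44 and 1.52 ± 0.44) and also under MC2580 (1.07 ± 0.23, adjusted p = 0.000797, DESeq2). The gene of the list that did not rise under shA1 was MX2 (0.28 ± 0.11), which fell under shB2 (−0.45 ± 0.11). The difference shB2 minus shA1 was tested for all 16, and 10 were lower under shB2 and none higher, all 16 being lower at an unadjusted p under 0.05, with a median difference of −2.61 beside 0.01 for all genes tested. IRF9 (difference −1.96 ± 0.32) was among the 10, and STAT2 itself was lower under shB2 in the same test. By this test 4.04% of all genes were lower under shB2 and 2.82% higher.

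**Figure D4:**
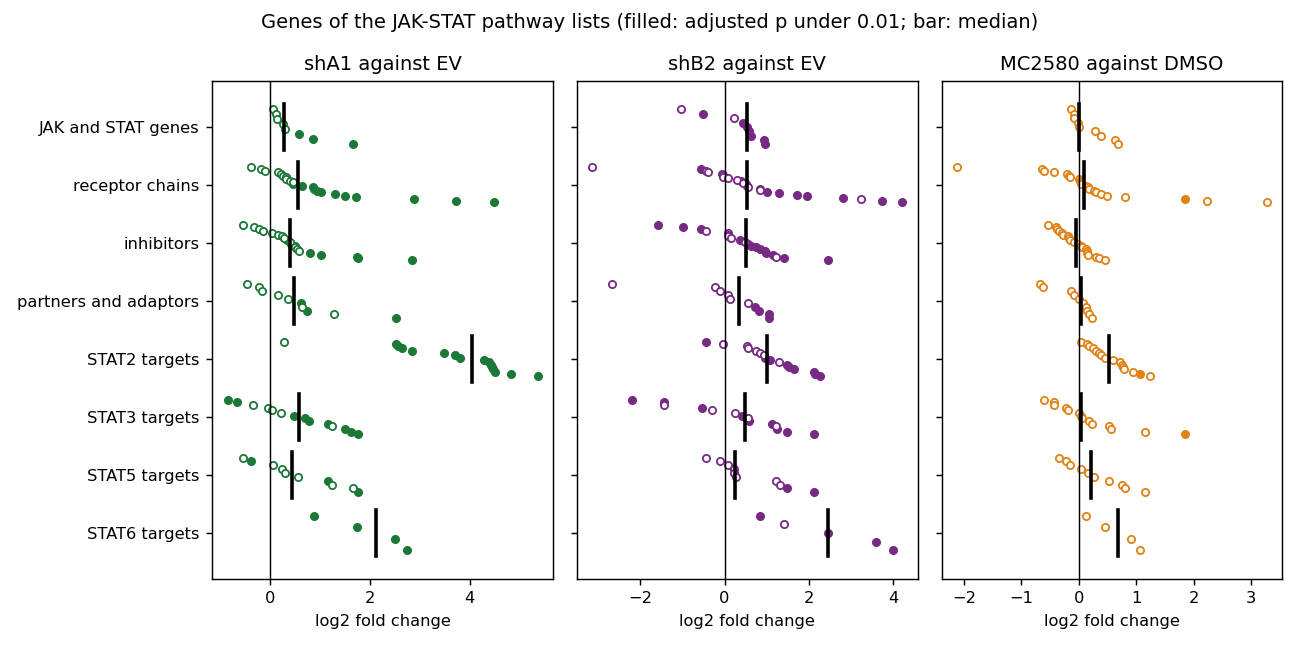
Log2 fold change (x axis) of each tested gene of the JAK and STAT genes and 7 pathway lists (y axis) under shA1 and shB2 against EV and under MC2580 against DMSO. Filled points have an adjusted p under 0.01, open points do not, vertical bars are list medians and some genes stand in more than 1 list. The STAT2 targets sit far to the right under shA1 (median 4.05), less so under shB2 (1.01) and near 0.53 under MC2580.

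The targets listed for the other STATs moved in both directions or in small numbers. The shares over all genes are those given with the STAT2 targets. Of 14 STAT3 targets, 7 rose and 2 fell under shA1 (median log2 fold change 0.59), 6 rose and 3 fell under shB2 (median 0.49) and 1, FOS, rose under MC2580 (1.85 ± 0.42, adjusted p = 0.00197, DESeq2; median 0.05). PIM1, a survival kinase, rose under both hairpins (1.15 ± 0.17 and 1.49 ± 0.17), while MYC (−0.85 ± 0.12 and −1.44 ± 0.12) and CEBPD, a myeloid transcription factor (−0.66 ± 0.15 and −2.20 ± 0.15), fell under both. Of 10 STAT5 targets tested, 2 rose and 1 fell under shA1 (median 0.43), 2 rose under shB2 (median 0.25) and none moved under MC2580 by adjusted p in DESeq2 (median 0.21, 2 at an unadjusted p under 0.05). The 1 that fell under shA1 was CCND2, cyclin D2 (−0.38 ± 0.10). PIM2 (0.05 ± 0.12 and 0.22 ± 0.12), BCL2L1 (0.30 ± 0.12 and 0.28 ± 0.13) and CISH did not pass under either hairpin. Of 11 STAT6 targets, 7 had a base mean under 10 in the knockdown experiment, so most had no adjusted p. All 4 tested under shA1 rose, and of 5 tested under shB2, 4 rose and 0 fell, by adjusted p in DESeq2. With most genes untested, these give no direction for the list as a whole. IL4R and SOCS1, given above, rose under both hairpins. ALOX15, a lipoxygenase induced by IL-4, rose from a level of 11.2 in EV to 75.0 in shA1 and 177 in shB2 cells (2.75 ± 0.54 and 3.98 ± 0.53). The chemokine CCL22 had levels of 5.79, 32.6 and 69.5 (2.49 ± 0.80 and 3.59 ± 0.80) and was abundant enough to be tested only through the knockdown groups. Targets too low for an adjusted p under shA1 did not share a direction. GATA3 was at −4.36 ± 2.41, whereas the estimates of CCL24 and TGM2 were positive. Under MC2580, 4 were tested and none moved by adjusted p in DESeq2, with 0 at an unadjusted p under 0.05.

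The member whose 3 log2 fold changes were spread widest was STAT4 (largest minus smallest value, 1.86), whose 95% intervals all spanned no change. The 4 genes nearest to it over the 3 comparisons among 10908 protein-coding genes were RFLNB (Euclidean distance 0.142), TLN2 (0.377), INHBB (0.406) and MS4A3 (0.467). The widest spread among the other 8 was that of STAT2 (1.03 by the same measure), looked up after its values were seen. The genes nearest to it were PIK3C2B (distance 0.0647), with log2 fold changes of 1.63 under shA1, 0.99 under shB2 and 0.69 under MC2580, SH2D3C (0.168), BCL3 (0.169) and HLA-B (0.182). These distances describe 3 estimates per gene, 2 of which share the EV libraries.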

How the data were processed

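mRNA was measured in 10 libraries of NB4 cells. The authors prepared TruSeq v2 libraries, mapped reads to hg38 with STAR (2.7 in the submitters' processing notes), quantified genes with RSEM and fitted DESeq2. Only tables of their comparisons were used here, with no value per library. The base means deposited by the authors are a signal, the average of counts divided by size factors. The log2 fold changes and their SEs, the score values (Wald statistics) and the p-values with Benjamini-Hochberg adjusted p-values were also deposited by the authors. They are the study's own comparison columns, used because nothing else is given, and were not set against the paper. The hairpin columns carry codes, and 3-1 was taken as shA1 and 4-2 as shB2, which the labels do not state.

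Group levels were solved from base mean and fold changes, and the dispersion from each SE. Both hairpins' SEs gave dispersions differing by a median of 0.465% over 12461 genes, and by at most 0.361% for the members other than STAT4 (8.92%). Levels per kilobase used the longest protein-coding transcript in GENCODE 44. The hairpin difference was a Wald test adjusted over all genes with an adjusted p under both hairpins, computed in Python 3.11.15 with SciPy 1.17.1. The computation was run on simulated data whose errors used the true dispersion, so the uncertainty of the dispersion was not tested. The lowest base mean with an adjusted p was 7.36 (shA1), 4.70 (shB2) and 4.03 (MC2580). Depth per library is unknown, so the SEs alone give the precision. Of 60558 gene IDs, 60261 were in GENCODE 44. Motifs were searched in RefSeq promoter windows.

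A gene was called at an adjusted p under 0.01, or with a log2 fold change over 1 in size as well. The genes named were all members, IRF9, IFNAR1, IFNAR2, SOCS1, SOCS3, CISH and USP18, GSE1 and KDM1A, from each list up to 4 called genes a comparison with the smallest adjusted p (a selection is printed), and the nearest genes of the widest-spread member. IL27RA, IL12RB1, MX2, PIM2, BCL2L1, GATA3, TGM2, CCL24 and the receptor genes listed at 0 were named after their values were seen. So were the markers MPO, ELANE, PECAM1, NCAM1 and CD3D. The members and lists were chosen with earlier results of these data known. Alternatives were other thresholds, other gene sets for the adjustment, centring on the median and the SE of the hairpin difference. edgeR was planned for counts and not run.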

Additional observations from a re-analysis of the deposited data

Results flagged for a closer look

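For 3 genes the log2 fold change differed between the hairpins by the test of the difference itself. STAT2 was lower under shB2 than under shA1 by a difference of −0.69 (0.97 against 1.66, adjusted p = 0.000814, Wald test on DESeq2 estimates), and its level was 0.620 times that in shA1 cells. STAT5A differed by −0.57 (−0.51 against 0.06, adjusted p = 0.000772, Wald test on DESeq2 estimates). JAK1 differed by 0.64 (0.94 against 0.30, adjusted p = 0.000231, Wald test on DESeq2 estimates), with a level in shB2 cells 1.56 times that in shA1 cells. GSE1 mRNA was at −0.77 under shA1 and −0.79 under shB2. For GSE1 protein, read at a later time than these libraries, the study reports a stronger depletion with shB2 than with shA1.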

How the results depend on the processing

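With an adjusted p under 0.01 and no fold threshold, the members called by DESeq2 went from 1 to 3 under shA1, from 0 to 7 under shB2 and from 0 to 3 for the hairpin difference. With a log2 fold change over 0.5 they were 3 under shA1 and 6 under shB2. With no fold threshold and the error that counts the EV libraries once, an alternative chosen after seeing the data, 5 differed between the hairpins. The first changes follow from asking fewer criteria, and the step from 3 to 5 from the smaller error. At an adjusted p under 0.05 and no fold threshold, also chosen after seeing the data, the counts were 5 under shA1 (JAK1 and TYK2 gained), 7 under shB2, 1 under MC2580 (STAT6) and 4 for the difference (STAT3 gained). The shares of all genes at an adjusted p under 0.05, or at a log2 fold change over 0.5, were not counted. Centring on the median protein-coding gene (shifts of 0.01, 0.03 and −0.02) turned the log2 fold change of STAT5B under MC2580 from −0.02 to 0.0045, both far inside the error. With the fold threshold, an adjusted p under 0.05 changed no call of a member. Adjustment over protein-coding genes, over every gene with a p-value or over genes whose base mean reached 50, and centring, changed no other direction and no call of a member where they gave a value, and without the fold threshold left 3 members called under shA1, 7 under shB2 and 0 under MC2580. No paired analysis was possible because no value per library is held in these tables, and for the same reason leaving out replicates and TMM normalization were not run, so a value that rests on 1 library would go unseen. With 2 libraries a group, small shifts such as those of STAT5B and all of STAT4 are below what these data resolve.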
